A study of Mus musculus with 3 samples.

Results

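The replication-dependent histone genes were defined as genes with a protein-coding transcript and a symbol that begins with Hist1h to Hist4h. The rule found 67 genes of the 55536 gene identifiers in the tables, and all 67 were in every library. Of them 54 lie in cluster Hist1, 10 in Hist2, 2 in Hist3 and 1 in Hist4. By histone type they comprise 6 H1, 18 H2A, 18 H2B, 12 H3 and 13 H4 genes. Another 3 symbols of this kind have pseudogene transcripts only and were not members.

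The study sequenced total RNA, depleted of ribosomal RNA, that had been isolated with chromatin from macrophages grown from C57BL/6J bone marrow, in 3 libraries of 1 condition. All cells had received 100 ng/ml Lipid A, the toll-like receptor agonist of lipopolysaccharide, for 12 h, then 12 h without it, then 100 ng/ml again for 10 min. The labels record neither age nor sex of the mice. No untreated cells were analysed here, so nothing below measures a response to Lipid A. The labels call the libraries biological replicates with separate biosamples and 1 shared donor identifier, and the p-values measure the spread between these libraries only. RNA input was 1 µg in replicate 1, 250 ng in replicate 2 and 500 ng in replicate 3.

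Library totals over genes were between 13538605 and 19949204 expected counts, of which the 67 members held 2824, 5201 and 3132 in replicates 1, 2 and 3. All 10 macrophage markers were at 1 TPM (transcript abundance per length, scaled to a fixed library sum) or more in every library, with Sirpa at 733 ± 50.3 TPM (SD, n = 3). Of the other cell types' markers, 1 of 10 for neutrophils (Csf3r), 2 of 8 for T cells (Cd4 and Il7r), 1 of 7 for B cells (Cr2), 1 of 6 for erythroid precursors (Alas2) and 0 of 6 for fibroblasts reached that level. These counts are from the gene tables. In a second deposited set, the read-based tables, mean TPM was 13.7 for Cd3d, 2.55 for Cd8a, 1.03 for Cd3g, 1.9 for Mpo and 1.3 for Col1a1. The remaining markers below that level in the gene tables had means under 1 TPM there as well.

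Replication-dependent histone genes supply the bulk of new histones while DNA is copied. Most have no introns, and their messages end in a conserved stem-loop rather than a poly(A) tail. The stem-loop is bound by SLBP, and the U7 small nuclear ribonucleoprotein, which contains Lsm10 and Lsm11, guides cleavage just after it. Transcription of these genes takes place at the histone locus body, which Npat organises, and is largely limited to S phase. Replication-independent variants such as H3.3 are made throughout the cell cycle from spliced, polyadenylated messages. A library prepared without poly(A) selection can hold both kinds of message.

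Of the 67 members, 40 were detected, meaning 1 TPM or more in all 3 libraries, which is 59.7%. The same threshold was met by 45.6% of all protein-coding genes. A further 5 members were listed at 0 in all 3 libraries. The mean level was 10 TPM or more in 11 members and under 1 TPM in 18. The 12 highest members held 62.7% ± 2.11 (SD, n = 3) of the summed TPM of all members.

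**Figure D1:**
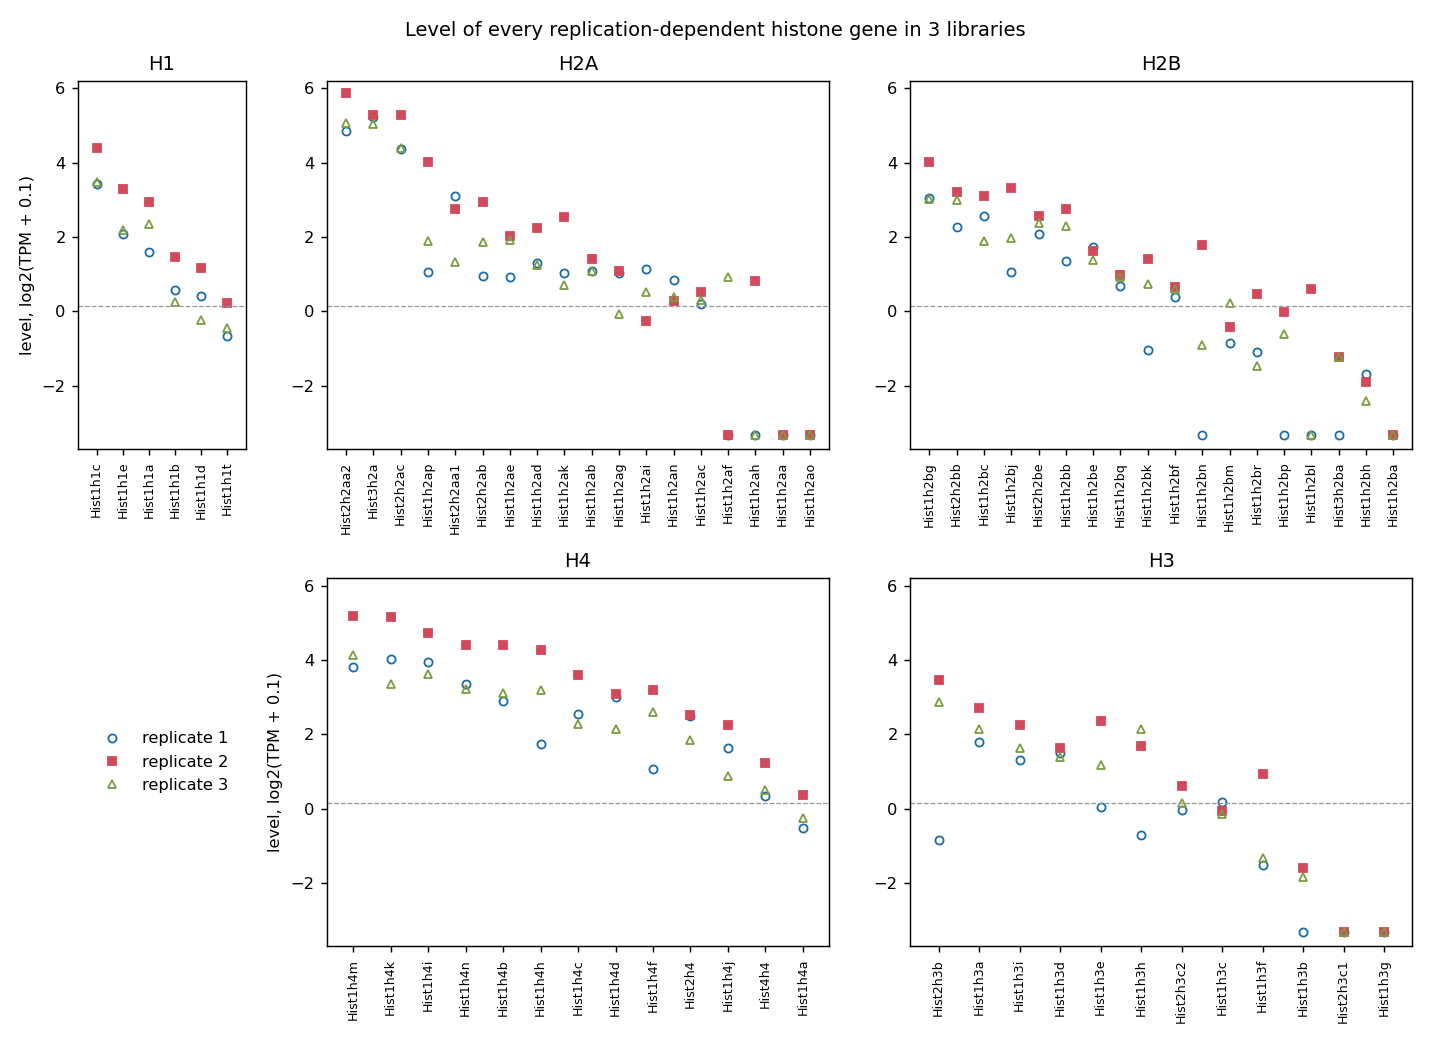
Level of each of the 67 members as log2(TPM + 0.1), with 1 panel for each histone type and members ordered by mean TPM. Circles, squares and triangles stand for replicates 1, 2 and 3, and the dashed line marks 1 TPM. The squares of replicate 2 lie highest for 53 of the 62 members with any TPM (46 of 63 by read-based TPM), and 5 members sit at 0 in every library. TPM was shifted towards replicate 2 over all genes tested too, by a median of 0.14 on the log2 scale.

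The members together held 0.0915%, 0.177% and 0.108% of the TPM of protein-coding genes in replicates 1, 2 and 3. Their summed level was 274, 548 and 294 TPM. Replicate 2 was above the other 2 libraries on both measures. The mean share was 0.126% ± 0.0456 (SD, n = 3).

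Features of the sequences were compared first, because they show how alike the members are. A stem-loop match after the stop codon was found in the annotated transcripts of 46 members, between 21 and 58 bases past the stop codon (median 31). Of the other 21, the shortest coding model of 17 ends at the stop codon, so no match could be found in it. Of these, Hist1h2bq and Hist1h2br also have longer coding transcripts, of 1254 and 1256 bases, which gave no match. The other 4 have later sequence without a match. Among these, Hist2h3b and Hist1h1a have only 37 and 48 bases after the stop codon, which may be too few to hold one. The matches had 8 distinct cores. The most common core, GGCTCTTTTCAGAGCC, occurred in 26 members, and none of these was an H4 gene. All 12 matched H4 genes carried a core of a different kind, and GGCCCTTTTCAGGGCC was the most frequent with 7 members. The stem-loops printed here belong to the highest member of each type with a match and to members with other cores. Capitals mark the core, which holds both arms of the stem and the loop, and lower case the flanking bases.
Hist1h1c: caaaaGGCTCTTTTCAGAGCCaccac
Hist2h2aa2: aaaaaGGCTCTTTTCAGAGCCaccca
Hist1h2bg: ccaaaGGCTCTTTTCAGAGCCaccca
Hist1h3a: ccaaaGGCTCTTTTCAGAGCCacaca
Hist1h4m: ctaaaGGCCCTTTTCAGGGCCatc
Hist1h4b: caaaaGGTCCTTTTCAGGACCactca
Hist1h4i: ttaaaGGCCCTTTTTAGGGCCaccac
Hist1h4a: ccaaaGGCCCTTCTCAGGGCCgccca
Hist1h2bb: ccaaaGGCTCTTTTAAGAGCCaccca
Hist2h2ac: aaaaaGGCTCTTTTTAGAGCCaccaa
Hist1h3g: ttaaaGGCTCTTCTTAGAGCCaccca
In all 8 cores the first 6 bases are the reverse complement of the last 6, in the H4 cores as in the common core. The search pattern fixed some of these pairs and allowed only a pyrimidine opposite a purine in the others. Most stems with weaker pairing would have been missed, so the full pairing is partly a product of the search. Hist1h4b and Hist1h4j share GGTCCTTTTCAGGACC, and Hist1h4i and Hist2h4 share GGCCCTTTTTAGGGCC. The core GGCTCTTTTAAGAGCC, shown for Hist1h2bb, was found in 6 members of types H1, H2B and H3.

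The members also share much of their coding sequence. The 13 H4 genes have 12 different coding sequences but encode 1 protein, and the 12 H3 genes encode 2. The 18 H2A genes encode 9 proteins, the 18 H2B genes 11, and the 6 H1 genes 6. Reads of near-identical genes can be assigned to a neighbour, so the share of each member's 50-base words that occur in no other annotated gene was counted. That share had a median of 45.9% over the members and was 0% in 5 of them. It was highest in H1, between 68.0% and 100%, and had medians of 27.0% in H2A, 38.0% in H3, 53.1% in H2B and 60.5% in H4. Genes of any kind on either strand count here, such as annotated miRNA genes that overlap H2A genes. A low share therefore need not mean a near-identical histone gene. Hist2h2bb was at 0% but shared words with 2 other genes, and 0 of these were members.

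Promoter windows of 300 bases, 250 before and 50 after the start, were available from RefSeq (GRCm38.p6) for 62 members. They were searched on both strands for the TATA box (TATAAA), the CCAAT box (CCAAT) and the octamer (ATTTGCAT), a motif bound by POU-domain factors such as Oct-1. The CCAAT box was present in 85.5% of the member windows and in 37.4% of 32851 windows of all genes. It was found in every window of H1, H2A, H2B and H3 genes but in 3 of 12 H4 windows. A TATA box match at any position was present in 56.5% of member windows against 13.6% overall. First matches lay as far apart as positions -250 (Hist1h4f) and 41 (Hist1h4a) relative to the start, and only exact letters were counted. The percentage is therefore not a count of promoters with a working TATA box. The octamer was present in 13 member windows, 7 of H2A and 6 of H2B genes, which is 21% against 1.74% overall. Windows of head-to-head genes overlap, so 1 motif can be counted for both. The windows of the highest H2B members, Hist1h2bg (chr13:23571150-23571449, + strand) and Hist2h2bb (chr3:96269450-96269749, + strand), follow with the matched motifs in capitals. For contrast the window of the highest H4 member, Hist1h4m (chr13:21811496-21811795, + strand), is added, which was chosen after the values were seen.
Hist1h2bg promoter: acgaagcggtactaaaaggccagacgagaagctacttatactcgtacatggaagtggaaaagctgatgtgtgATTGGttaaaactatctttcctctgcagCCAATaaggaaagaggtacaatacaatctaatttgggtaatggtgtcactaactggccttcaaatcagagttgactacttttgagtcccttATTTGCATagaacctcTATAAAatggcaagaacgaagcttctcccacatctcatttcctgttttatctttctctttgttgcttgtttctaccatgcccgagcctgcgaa
Hist2h2bb promoter: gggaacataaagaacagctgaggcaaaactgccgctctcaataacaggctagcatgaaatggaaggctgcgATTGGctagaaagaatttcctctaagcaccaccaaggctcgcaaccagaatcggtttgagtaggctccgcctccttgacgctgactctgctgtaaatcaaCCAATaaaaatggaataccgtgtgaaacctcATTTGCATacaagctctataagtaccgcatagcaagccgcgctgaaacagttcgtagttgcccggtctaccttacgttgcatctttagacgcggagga
Hist1h4m promoter: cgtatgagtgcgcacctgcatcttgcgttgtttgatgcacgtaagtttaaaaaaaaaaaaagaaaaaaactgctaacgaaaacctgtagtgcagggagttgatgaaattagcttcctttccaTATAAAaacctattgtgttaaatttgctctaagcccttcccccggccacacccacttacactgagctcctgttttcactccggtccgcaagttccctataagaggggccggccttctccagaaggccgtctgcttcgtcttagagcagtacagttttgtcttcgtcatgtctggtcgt
Both H2B windows hold the octamer, 59 and 48 bases before the start, with 2 CCAAT boxes each upstream of it. The H4 window holds 1 TATA box match 128 bases before the start and neither other motif. These matches describe the letters of the windows and are not evidence of binding.

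Among the types, H2A genes held the largest mean part of the summed TPM, 38.3% ± 3.42 (SD, n = 3), with 41.6%, 34.8% and 38.4% in replicates 1, 2 and 3. Nucleosomes contain H2A as a dimer with H2B. Of 18 H2A members 12 were detected. Most of their signal came from Hist2 and Hist3 rather than from the 13 H2A genes of Hist1. Hist2h2aa2 (chr3, Hist2) had 28.89, 58.49 and 33.77 TPM in replicates 1, 2 and 3. Its neighbour Hist2h2aa1 had 8.56, 6.67 and 2.40 TPM. Neither gene has a 50-base word of its own and their coding sequence is shared, so the split between them is uncertain. The deposited posterior SD of the expected count was 8.52% of the mean count for Hist2h2aa2 and 48.1% for Hist2h2aa1. Summed, the pair had 37.5, 65.2 and 36.2 TPM, or 46.3 ± 16.4 (SD, n = 3).

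Hist3h2a (chr11) had 37.33, 39.08 and 32.82 TPM, the narrowest relative range among the 12 highest members. It had the most expected counts of all members, 961.15, 1252.57 and 1025.72. Its annotated transcript of 2146 bases runs 1643 bases past the stem-loop. It overlaps Trim17 on the same strand, which had 3.73, 3.83 and 4.01 TPM, so reads in the overlap could belong to either gene. Hist2h2ac (chr3) had 20.48, 38.76 and 21.07 TPM. Replicate 2 was the highest library for Hist2h2aa2 and Hist2h2ac, and for Hist3h2a replicates 1 and 2 were close.

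Within Hist1, 9 H2A genes encode 1 identical protein and had 15.0, 32.7 and 16.2 TPM in sum. The highest of them was Hist1h2ap with 1.97, 16.23 and 3.60 TPM, and only 6.93% of its words were unique. Hist1h2ao, whose words were 6.5% unique, was listed at 0 in every gene table. Hist1h2aa was listed at 0 as well, and it pairs with Hist1h2ba, both known as testis histones.

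H4 followed with a mean of 33.6% ± 3.41 (SD, n = 3), and with 37.0% it was above H2A in replicate 2 only. Replicates 1 and 3 were at 33.6% and 30.2%. H4 forms a tetramer with H3 at the centre of the nucleosome. Of 13 members 12 were detected, all but Hist1h4a, which had 0.60, 1.18 and 0.74 TPM. The 13 genes had 92.1, 203 and 88.8 TPM in sum, all for the same protein. Hist1h4m had 13.93, 36.24 and 17.33 TPM, Hist1h4k 16.18, 35.76 and 10.18, and Hist1h4i 15.39, 26.45 and 12.27. Hist1h4n followed with 10.19, 21.02 and 9.22 TPM, Hist1h4b with 7.27, 21.12 and 8.56, Hist1h4h with 3.25, 19.13 and 8.95, and Hist1h4c with 5.71, 12.06 and 4.72. In each of these 7 genes replicate 2 lay above both other libraries. Their order among themselves is not firm, since the SD of Hist1h4m was 12.0 TPM around a mean of 22.5.

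The H4 genes differed widely in the reads behind their levels. Hist1h4i received 107.53, 211.95 and 97.34 expected counts. Hist1h4k was annotated as 312 bases without any sequence after its stop codon, had a mean effective length of 96.8 bases and received 25.31, 50.54 and 14.86 expected counts. It ranked 5 by TPM and 25 by expected count among the members. Outside Hist1, Hist2h4 (chr3) had 5.55, 5.58 and 3.51 TPM. Hist4h4 (chr6), the only gene of its cluster, had 1.16, 2.22 and 1.32 TPM over a transcript of 2863 bases.

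H2B genes held 12.7%, 13.4% and 14.7% of the summed TPM, and 9 of 18 were detected. The highest was Hist1h2bg (chr13) with 8.21, 16.24 and 8.03 TPM, and Hist2h2bb (chr3) followed with 4.76, 9.27 and 7.84. Hist1h2bc, Hist1h2be and Hist1h2bg encode the same protein and together had 19.7 ± 7.11 TPM (SD, n = 3), or 39.1% of all H2B. Hist3h2ba (chr11), the H2B gene beside Hist3h2a, had 0.00, 0.33 and 0.33 TPM. The H2B gene with no reads was Hist1h2ba.

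For 3 H2B genes the level came partly or wholly from transcripts that are not short protein-coding models. The coding transcript of 381 bases was at 0 in every library for Hist1h2bq and for Hist1h2br. Of Hist1h2bq, a transcript of 2015 bases annotated as subject to nonsense-mediated decay had 1.5, 1.35 and 0.97 TPM, and a coding transcript of 1254 bases had 0.00, 0.52 and 0.85. Of Hist1h2br, a transcript of 2197 bases of the same class had 0.37, 1.29 and 0.26 TPM, which was the gene's entire level in these tables. In the read-based tables a coding transcript of Hist1h2br of 1256 bases had 0.00, 0.357 and 0.411 TPM beside 0.585, 0.974 and 0.298 for the transcript of 2197 bases. Only 2.68% of the words of Hist1h2bq and 11.3% of those of Hist1h2br are unique, and the posterior SD was 25.8% and 54.0% of the mean count, so these splits are uncertain. Of Hist1h2be, a transcript without a coding sequence had 1.99, 1.39 and 1.45 TPM, beside 1.23, 1.61 and 1.04 for its coding transcript of 2480 bases.

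H3 genes held 4.55%, 6.80% and 8.82% of the summed TPM, the lowest part of any type in replicates 1 and 2 but above H1 in replicate 3, and 3 of 12 were detected. Hist2h3b (chr3) had the highest mean but the widest range, 0.46, 10.83 and 7.26 TPM, and no word of its own. Hist1h3a (chr13) had 3.33, 6.40 and 4.35 TPM. The 8 genes that encode the H3.2 protein had 6.28, 23.1 and 14.3 TPM in sum and the 4 that encode H3.1 had 6.21, 14.1 and 11.7. The H3.2 sum was higher within each library, in replicate 1 by little, and the ranges over libraries overlapped. Hist1h3g was listed at 0, and so was Hist2h3c1, whose words all occur in other genes as well. By counting error alone, 0 expected counts would allow up to 3 counts, which is 0.222, 0.15 and 0.165 CPM (counts scaled to library size) in replicates 1, 2 and 3. That is no bound where reads are shared with other genes. The upper credibility bounds in the authors' deposited tables were 0.556, 0.319 and 0.605 TPM for Hist2h3c1 and 0.828, 0.655 and 0.916 TPM for Hist1h3g.

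H1 linker histones, which bind the DNA between nucleosomes, held 7.60%, 8.08% and 7.87% of the summed TPM, and 4 of 6 were detected. Hist1h1c (chr13) made up 48.5% of it with 10.61, 21.04 and 11.18 TPM. Hist1h1e had 4.15, 9.73 and 4.48 TPM and Hist1h1a 2.93, 7.64 and 5.02. The testis gene Hist1h1t had 0.53, 1.08 and 0.64 TPM. Hist1h1d had 1.23, 2.13 and 0.75 TPM over a single-exon model of 7425 bases. It ranked 6 by expected count, with 118, 259.27 and 88.09, but 45 by TPM. Replicate 2 was the highest library for all 6 H1 genes.

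By cluster, Hist1 held 58.4%, 66.1% and 59.2% of the summed TPM with 54 genes, and Hist2 held 27.5%, 26.3% and 29.1% with 10. Hist3 held 13.6%, 7.19% and 11.3%, almost entirely from Hist3h2a, and Hist4 about 0.425% ± 0.0219 (SD, n = 3). Shares of expected counts, which grow with transcript length, were 49.1% ± 5.61 for Hist1 and 30.3% ± 5.40 for Hist3. The median level of the Hist1 genes was below that of the genes of Hist2 to Hist4 in every library. The difference of the medians of log2(TPM + 0.1) was -1.09, -1.13 and -0.94, with a mean of -1.05 ± 0.10 (SD, n = 3). With 3 libraries an exact two-sided sign-flip test cannot give a p below 0.25, so none was run.

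**Figure D2:**
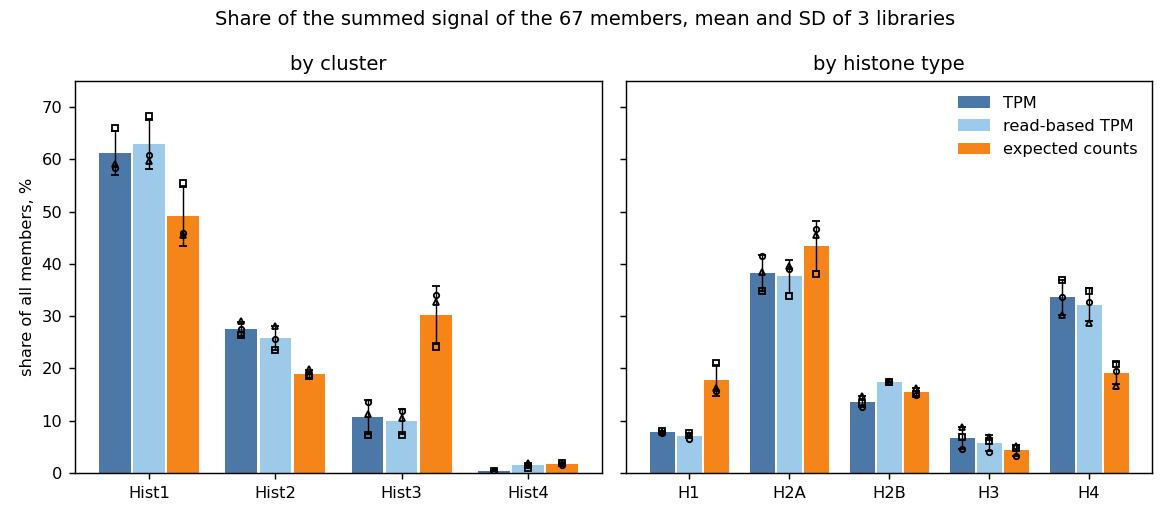
Share of the summed signal of the 67 members in percent by cluster and by histone type, from TPM of the gene tables, read-based TPM and expected counts. Bars and error bars are the mean and SD of 3 libraries and the symbols are the single libraries as circles, squares and triangles for replicates 1, 2 and 3. Hist3 and H1 take larger shares, and H4 a smaller one, by counts than by TPM.

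Along the chromosomes the members fell into 7 blocks when neighbours within 100 kb were joined. The block at chr13:23531050-23764406 (mm10) holds 29 members and the iron-regulating gene Hfe, and its members summed to 119 ± 51.5 TPM (SD, n = 3). The block at chr13:21715763-21837530 holds 18 members with 85.9 ± 48.0 TPM. A smaller one at chr13:22035164-22043676 holds 5 members with 26.9 ± 13.5 TPM. The 2 members at chr13:23933773-23934851, Hist1h2ba and Hist1h2aa, were at 0. Hist2 lies at chr3:96219865-96270132, where 10 members had 102 ± 37.2 TPM. Median levels of single members were 5.45 TPM in the Hist2 block, against 2.90, 1.73 and 1.61 in the 3 Hist1 blocks with reads.

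Of the H2A and H2B genes, 12 pairs lie head to head with 175 to 305 bases between their starts, so that each pair shares its upstream region. In 5 pairs the H2A gene was higher in every library and in 5 the H2B gene was. In the pair of Hist1h2ai and Hist1h2bl the order changed between libraries, and the pair of Hist1h2aa and Hist1h2ba was at 0. Among the 10 pairs with both means above 0 the higher partner exceeded the lower by 2.25- to 11.4-fold, with a median of 3.08-fold. The largest fold, of Hist1h2ap over Hist1h2br, rests on lengths of 482 and 2197 bases and on words that are 6.93% and 11.3% unique. Expected counts were closer, 7.39, 63.64 and 14.22 for Hist1h2ap against 9.78, 42.49 and 8.44 for Hist1h2br. Hist2h2ac exceeded Hist2h2be 5.34-fold, and Hist2h2be had 4.12, 5.86 and 5.07 TPM. This order rests on annotated lengths of 520 and 2620 bases, since Hist2h2be had more expected counts, 132, 235 and 198 against 87, 176.02 and 96. Conversely Hist1h2bg exceeded Hist1h2ae 3.41-fold, and Hist1h2ae had 1.82, 3.98 and 3.72 TPM. The TPM ranges of the partners did not overlap in the pair of Hist2h2ac or in the pair of Hist1h2bg. In the tables made straight from the reads, 7 of the 10 ordered pairs had the same order in all 3 libraries. The exceptions were the pairs of Hist1h2ad with Hist1h2bf, Hist1h2an with Hist1h2bp and Hist1h2ao with Hist1h2bq.

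**Figure D3:**
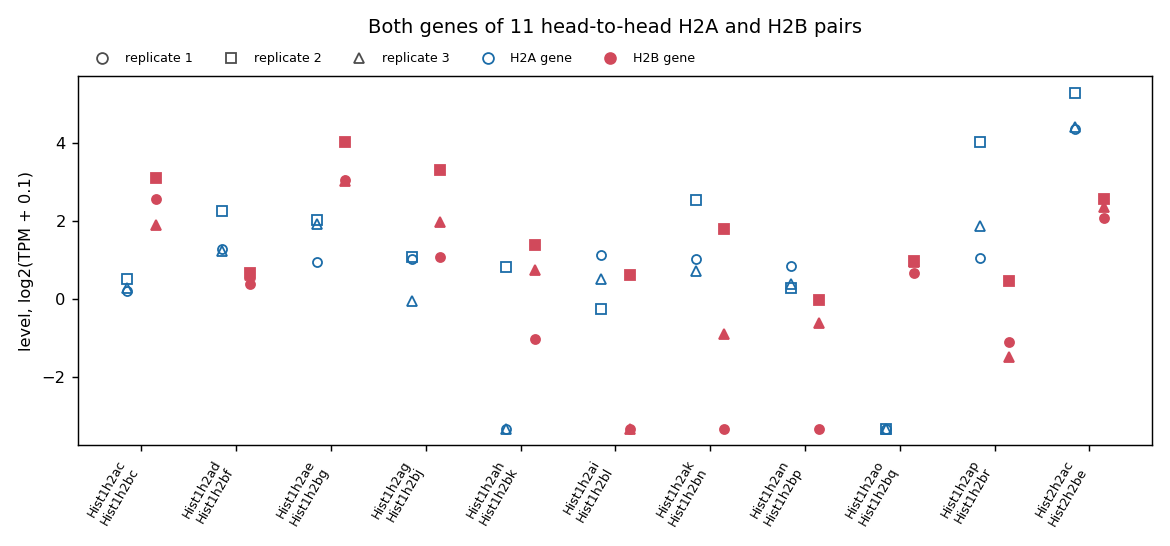
Level as log2(TPM + 0.1) of the H2A gene (open blue symbols) and the H2B gene (filled red symbols) of 11 head-to-head pairs. Circles, squares and triangles stand for replicates 1, 2 and 3, and the pair at 0 in all libraries is left out. In 10 pairs 1 partner lies above the other in every library.

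The variation between libraries was tested with edgeR's goodness-of-fit test over 14789 genes. It asks whether a gene varied more between the 3 libraries than genes of its level. Of all genes tested, 167 (1.13%) had a Benjamini-Hochberg adjusted p below 0.05. Only 33 members passed the filter on low counts, and 0 of these were called. On simulated data the test found only 18.2% of genes changed 2-fold in 1 library, so 0 calls do not show that members did not vary. At an unadjusted p below 0.05, 6.23% of all genes and 7 of the 33 members were found, namely Hist1h1c, Hist1h1d, Hist1h1e, Hist1h3e, Hist1h4h, Hist1h4k and Hist2h2aa1. Their adjusted p-values by edgeR were between 0.115 (Hist1h1d) and 0.594 (Hist1h4k). DESeq2's dispersion outliers included 0 members. Without the filter on low counts, 2 of 62 members were called, Hist1h2ap and Hist2h3b, beside 214 of 24516 genes. Without replicate 1, 2 of 38 members were called, Hist1h1d and Hist1h2ap, beside 57 of 15101 genes. Of the 50-base words of Hist1h2ap and Hist2h3b only 6.93% and 0% are unique, so their counts may be shared with other genes. The members that passed had a median SD of 0.468 between libraries in log2 CPM (scaled by TMM) at a median level of 1.42, whereas all genes tested had 0.192 at 3.55.

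The direction of the variation was shared. Replicate 2 lay above both other libraries in 25 of the 33 members, against 29.5% of all genes that passed the filter. The median difference of replicate 2 from the mean of replicates 1 and 3 was 0.66 (log2 CPM) over the 33 members and 0.00 over all genes tested. Under 4 other scalings the members' median was between 0.59 and 0.90, and that of all genes tested between -0.03 and 0.14. By type the medians were 0.90 for the 4 H1, 0.76 for the 11 H4, 0.37 for the 4 H3, 0.36 for the 7 H2A and 0.22 for the 7 H2B genes that passed. In single genes the largest differences were in Hist1h3e (1.47), Hist1h4h (1.41), and Hist1h4b, Hist1h1d and Hist1h1e (1.02 each). Hist1h3e had 0.93, 5.0 and 2.16 TPM, with an adjusted p of 0.119 by edgeR's goodness-of-fit test.

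Replicate 2 also had the lowest RNA input and the most counts. Annotated small RNA classes took 58.6%, 52.1% and 56.4% of all TPM in replicates 1, 2 and 3. This raises the TPM of all other genes in replicate 2 but not their log2 CPM relative to each other. TPM also divides by an effective length that differed between libraries, with 118.32, 83.42 and 88.78 bases for Hist1h4k. For the long model of Hist3h2a it was 1947.21, 1891.83 and 1901.71 bases. The TPM of short models such as Hist1h4k is thereby raised in replicate 2 over replicate 1, and log2 CPM is not. The part of input and depth in the result was not tested, because each input amount was used for 1 library.

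The difference varied with the length of the gene model, a split chosen after the values were seen. In the 19 members under 1000 bases the median was 0.74, with values between 0.20 and 1.47. Outside H1, the 11 members of 1000 bases or more had a median of 0.18 and values between -0.02 (Hist1h2be) and 0.71 (Hist1h2bc). Hist3h2a, Hist1h2bq and Hist1h3d, at 0.02, 0.02 and 0.03, were among these long models. The 3 long H1 models were between 0.79 and 1.02. Over protein-coding genes the medians were 0.11 for 975 models under 1000 bases and 0.01 for 10265 longer ones.

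**Figure D4:**
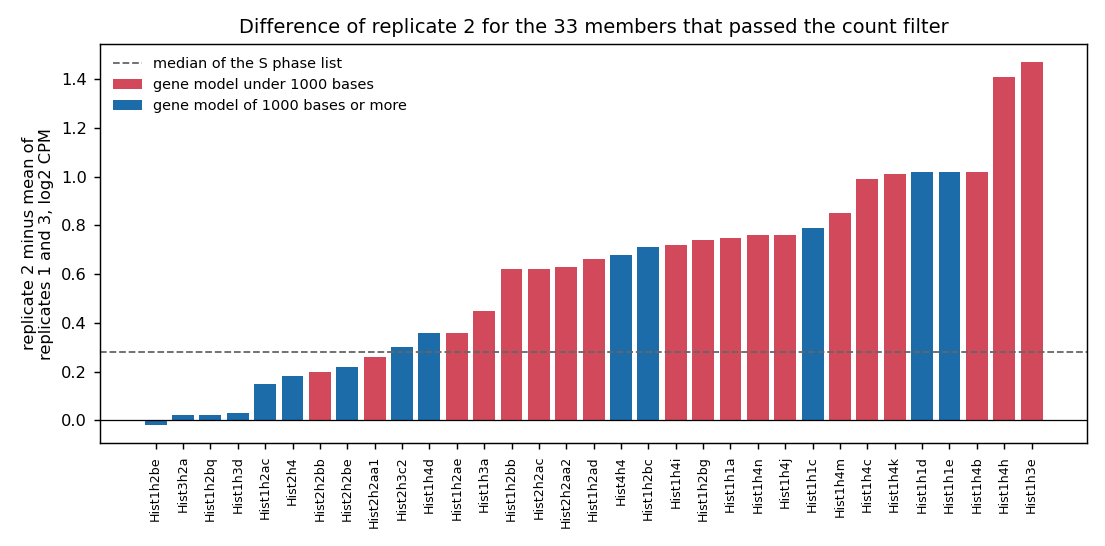
Difference of replicate 2 from the mean of replicates 1 and 3 in log2 CPM for the 33 members that passed the count filter, in rising order. Red bars are gene models under 1000 bases, blue bars longer ones, and the dashed line is the median of the S phase list (0.28). Most bars lie above the dashed line, and the 4 smallest are long models near 0.

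Other genes of the histone pathway were described from fixed lists. In the list of DNA replication and S phase genes 22 of 30 were detected, with Tk1 (thymidine kinase) at 34.1 ± 3.61, Pcna (the sliding clamp) at 24.4 ± 6.23 and Pola1 (DNA polymerase alpha) at 9.25 ± 1.02 TPM (SD, n = 3), and Fen1 lowest at 0.297 ± 0.281. Replicate 2 was above both others in 20 of the 29 S phase genes that passed the filter, and their median difference was 0.28. In the G2 and mitosis list 6 of 15 were detected, led by Mki67 at 6.53 ± 0.384, Top2a at 5.38 ± 1.35 and Cenpe at 4.03 ± 0.284 TPM. Ccnb2 was lowest at 0.283 ± 0.0551. In the read-based tables the order differed, with Cdk1 highest at a mean of 12.8 TPM (0.827 in the gene tables) and Birc5 at 8.84 (1.22). The list's median log2(TPM + 0.1) was 1.52 there and 0.37 in the gene tables, and that of the S phase list 2.53 and 1.69. The median difference of replicate 2 in the G2 and mitosis list was 0.02, and 5 of the 13 genes that passed were highest in replicate 2. The relation between these lists and the histone genes was not tested, and in bulk samples more cells of a kind and more RNA per cell cannot be told apart.

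Factors that act on histone pre-mRNA 3' ends and on histone mRNA were nearly all present, with 18 of 20 detected. The highest were Srrt at 189 ± 10.7, and Tut7 and Tut4, uridylyltransferases that mark histone mRNA for decay, at 146 ± 34.2 and 70.0 ± 9.02 TPM. Slbp was at 19.4 ± 2.69 and Npat at 4.55 ± 0.101 TPM. In the gene tables only Lsm11, at 0.517 ± 0.110, and Zfp473, at 0.343 ± 0.151 TPM, were below the threshold. Their mean read-based TPM was higher, 4.52 for Lsm11 and 2.27 for Zfp473, so their low level was seen in the gene tables only. The list's median difference of replicate 2 was 0.06.

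By their median, replication-independent histone variants were at a higher level than the members in every library. Of 11 variants 8 were detected, and H3f3b, which encodes H3.3, was at 215 ± 36.8 TPM, followed by H2afy (macroH2A) at 89.8 ± 8.61 and H3f3a at 17.2 ± 4.45. H1fx was listed at 0. The median level of the members was below that of the variants by -1.86, -1.07 and -1.49 on the log2(TPM + 0.1) scale, a mean of -1.48 ± 0.40 (SD, n = 3). Summed, the 11 variants had 340, 432 and 332 TPM and the 67 members 274, 548 and 294, so the order of the sums was reversed in replicate 2. The variants' median difference of replicate 2 was 0.02.

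Histone chaperones, which carry histones to and from DNA, were detected in 14 of 15 cases. Atrx and Daxx, which deposit H3.3, were at 289 ± 39.0 and 104 ± 38.0 TPM and Cabin1 at 45.0 ± 10.5. Asf1b was lowest at 0.423 ± 0.186 TPM. Replicate 2 was the highest library in 2 of the 14 that passed the filter. Over these 5 lists edgeR's goodness-of-fit test called 0 genes at an adjusted p below 0.05. At an unadjusted p below 0.05 it found 2 of 29 S phase genes tested, 1 of 13 of G2 and mitosis, 1 of 9 variants, 2 of 14 chaperones and 0 of 20 processing factors, beside 6.23% of all genes tested. DESeq2's dispersion outliers included 0 genes of these lists.

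The shares of Hist1, Hist2 and Hist3 were close in the 2 kinds of table. They were 61.2%, 27.6% and 10.7% of the members' TPM in the gene tables and 62.9%, 25.8% and 9.86% in the read-based tables. Hist4, a single gene, was at 0.425% and 1.44%. Of 46 members with a mean of 1 TPM or more in both kinds of table, 41 (89.1%) were within 2-fold, as were 82.1% of 10462 protein-coding genes. The members' levels were lower in the read-based tables, with a median ratio of 0.85, while that of protein-coding genes was 1.32. The share of the members in protein-coding TPM was accordingly 0.0640%, 0.102% and 0.0650% there, again highest in replicate 2. Detection changed little, with 42 members against 40.

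Among members with a mean of 1 TPM or more in either kind of table, 6 differed most on the scale of the mean TPM + 0.1. Below that level Hist1h2bh, at 0.157 TPM in the gene tables against 0.796 read-based TPM, differed more than 5 of these 6, and Hist1h2ah, at 0.557 and 0.191, more than 4 of them. Hist1h2ao, at 0 in the gene tables, had 0.594, 3.17 and 1.80 read-based TPM. Hist4h4 had 4.36, 3.95 and 4.28 read-based TPM, 2.58-fold above its gene-table level on that scale. Hist2h2ab had 9.83, 8.52 and 8.55 against 1.85, 7.54 and 3.58, and the order of its libraries was not the same. Hist1h2bf had 3.25, 2.59 and 2.67 against 1.21, 1.49 and 1.43. Hist2h3b was lower in the read-based tables, with 0.162, 4.49 and 3.58, and so was Hist1h2ap, with 1.75, 6.53 and 2.29. Of the 6, Hist4h4 has words that are 91.5% unique, and the other 5 were between 0% and 35.2%.

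**Figure D5:**
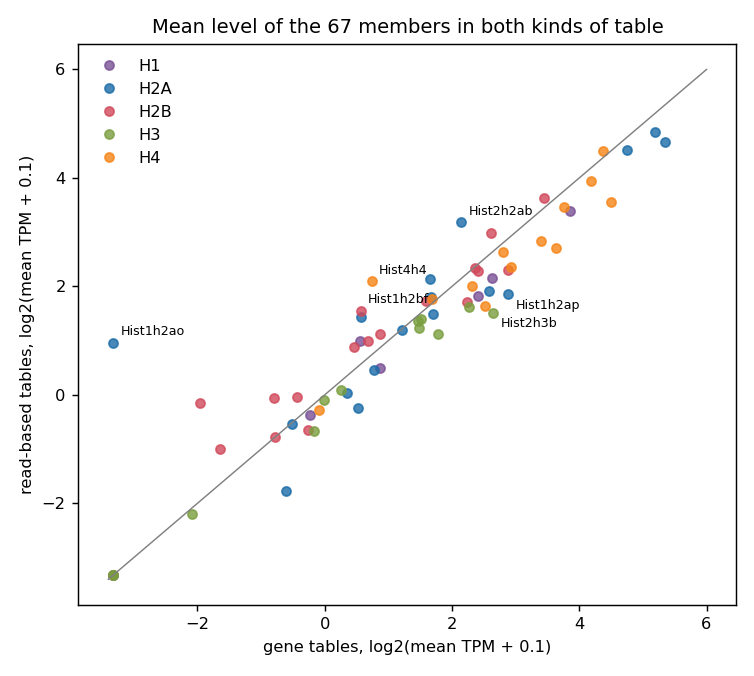
Mean level of each of the 67 members over 3 libraries as log2(mean TPM + 0.1) in the gene tables against the read-based tables, coloured by histone type. The line marks equal levels. Most members lie near it, and labels mark the 6 with the largest differences among members with a mean of 1 TPM or more in either kind of table.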

How the data were processed

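Per the labels, total RNA of the chromatin fraction had been sequenced after ribosomal RNA depletion. The authors deposited expected counts and TPM per gene and per transcript in the columns of RSEM, made from reads aligned to transcripts (build mm10, GENCODE M21), per the file headers and notes. A second deposited set, here called read-based, gives estimated counts and TPM per transcript in the columns of kallisto. The posterior SD is the authors' own column. The aligner, the quantifiers, their versions and the use of strand are, in the sources used here, not given, so reads of overlapping genes cannot be told apart. Members and lists were chosen with earlier results of these data known.

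Read-based transcripts were summed per gene, and 86 identifiers not in them were set to 0. Zcchc6 and Zcchc11 were matched as Tut7 and Tut4. Levels were medians of log2(TPM + 0.1). Expected counts were rounded, filtered by filterByExpr and scaled by TMM in edgeR 4.0.16 (R 4.3.3). An intercept-only model with a trended negative binomial dispersion was fitted to 1 group of 3 libraries, and each gene's deviance was referred to a chi-square distribution. On simulated data with 198 changed genes tested per fold size, this found 18.2% of genes changed 2-fold in 1 library and 90.4% of those changed 4-fold. Changed genes were drawn from all genes tested, with a median level of 3.55 log2 CPM against 1.42 for the members. These rates need not hold for the members. DESeq2 1.42.0 served as an alternative. The limit of 3 counts is for counting error alone, because these reads carry no molecular identifiers, and is no bound where reads are shared between genes.

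Stem-loops were searched in GENCODE M21 transcripts after the stop codon by a histone stem-loop pattern that itself requires largely paired arms. Word sharing was counted over all M21 transcripts on both strands. Proteins were compared by translating the annotated coding sequences. Values are given for the 12 members of highest mean TPM, the highest of each cluster and type, all Hist3 and Hist4 members, and the 6 that differed most between tables among those with a mean of 1 TPM or more in either kind. Other named members were chosen after their values were seen. Of each list the 3 highest genes and the lowest are named. Alternatives were other thresholds, pseudocounts, tables, totals and filters, and leaving out each library.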

Additional observations from a re-analysis of the deposited data

Results flagged for a closer look

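Hist1h2ao had no expected counts in the gene tables but a mean of 1.85 TPM in the read-based tables, which the comparisons of levels do not use. Only 6.5% of its 50-base words occur in no other annotated gene. The pseudogene Hist3h2bb-ps, which the rule leaves out, had 1.70, 1.37 and 0.54 TPM in the gene tables, a mean of 1.2. That rests on 6, 5 and 2 expected counts, so its level is above the limit of 3 counts in replicates 1 and 2 only.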

How the results depend on the processing

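No paired analysis was possible because the study has 1 group. The 40 detected members became 10 at a threshold of 5 TPM. The members' share of protein-coding TPM, 0.126%, was 0.0771% with read-based TPM, 0.0336% with expected counts and 0.0373% of the TPM of all genes. With read-based TPM the shares of summed signal were 25.8% for Hist2, 1.44% for Hist4, 7.15% for H1 and 17.4% for H2B. With expected counts they were 49.1%, 18.9%, 30.3% and 1.72% for Hist1 to Hist4, and 17.7%, 43.4%, 15.5%, 4.35% and 19.1% for H1, H2A, H2B, H3 and H4. Counts are not divided by length, which sets these shares apart. A pseudocount of 1 gave -0.82 for the difference between Hist1 and the other clusters. The goodness-of-fit calls over all genes, 167, were 271 with read-based counts, 61 as DESeq2 outliers and between 52 and 68 when a library was left out, where fewer samples were fitted. Calls among members were between 0 and 2 when a library was left out. Without a filter they were 2 of 62, beside 214 of 24516 genes. The other causes were not tested. Of 88 alternative values of these and the other group results, 63 stayed within 1 SD, or within 1.5 times for counts, and 0 changed direction. For the named members it was 81 of 88. The 4 other scalings of the difference of replicate 2 were chosen after the data were seen.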

Other observations

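The annotated ends of the members fall into kinds. The models of 17 members end at the stop codon, 20 end within 50 bases of the stem-loop, 26 run past it, by up to 4884 bases, and 4 have no match. The medians of the mean TPM were 1.39, 4.66, 2.73 and 5.59 in this order, and 8, 14, 15 and 3 members were detected. Of several coding transcripts the shortest with a match was used, or else the shortest. The 17 thus include Hist1h2bq and Hist1h2br, whose levels came from longer transcripts. TPM divides by the length of the annotated transcripts, so the order of members by level rests on these lengths.

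Of the 67 members, 24 overlap another annotated gene, and in 17 of these it is an annotated miRNA gene on the other strand, in each case at an H2A gene.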
